A study of Sus scrofa domesticus with 4 samples.

Results

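Phagocytes are the macrophages, monocytes and neutrophils that engulf particles and kill microbes, and the transcripts described here are 10 of their genes in porcine endometrium, the lining of the uterus. The genes were taken by name from a list of 10 symbols, and any array probe whose RefSeq accession belongs to one of them was a member. That gave 17 probes of 9 genes among the 43603 probes of the array, of which 6700 probes of 3029 genes carry a RefSeq gene name here. No probe mapped to CD68, so it was dropped. The genes were chosen by name with the treatment ratios of these same arrays known, and GP91-PHOX, CD86 and CHI3L1 were selected on their low ratios, so the treatment ratios of all members are given as a description and no p-value is attached to them. Their standard errors and 95% intervals test nothing, since the genes were not chosen apart from these values. They come from a fit that takes out a dye term and shares variance between probes. They are therefore not a probe's own spread between arrays.

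The treated group was endometrial explants kept for 24 h with 10 nM orexin B, a neuropeptide that stimulates appetite and arousal and also acts on reproductive tissues, and the untreated group was explants kept for the same time without it. All explants came from 4 pregnant crossbred gilts (Large White x Polish Landrace) aged 7 to 8 months and were taken on days 15 to 16 of gestation, when the conceptuses attach. Both groups had first spent 2 h in culture medium alone, and cultures were set up in duplicate in 4 experiments. Each of the 4 two-colour arrays carried RNA of both groups in different dyes, the treated RNA being in Cy5 on arrays 1 and 3 while arrays 2 and 4 carried it in Cy3. The labels do not say which gilt is on which array.

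Phagocytes kill with superoxide, which an NADPH oxidase in their membrane makes once its catalytic subunit, encoded by GP91-PHOX (the CYBB or NOX2 gene), is joined by cytosolic partners. CD86 is the co-stimulatory receptor that macrophages and dendritic cells raise when they are activated and show to T cells, and CHI3L1 is a secreted chitinase-like lectin of activated macrophages and neutrophils that other cells also make. AIF1, CD14 and CD163 mark the macrophage and monocyte lineage, whereas S100A8, S100A9 and S100A12 encode calcium-binding proteins that fill the cytosol of neutrophils and monocytes. In the pregnant uterus macrophages lie in the stroma, where they clear debris and take part in the tolerance of the conceptus. In whole explants, fewer cells of a type and less RNA per cell cannot be told apart.

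Signal differed more between dyes than between groups. Spots well above background, as the scanner software judged them, made up 82.4% to 86.7% of the 43803 spots in Cy5 on arrays 1, 3 and 4, 46.8% in Cy5 on array 2, and 27.8% to 36.2% in Cy3. Per the file headers, array 2 lay on another slide and was scanned on another day, although the deposited names give 1 slide for all 4 arrays. The 5 epithelial markers with a probe (EPCAM, CDH1, KRT8, CLDN3 and CLDN4), of 10 listed, were well above background in both dyes on all 4 arrays, as befits a lining epithelium. Tests were run on probes that 1 group at least showed well above background in each of its 4 channels. This held for 13782 probes, and for 11 of the 17 phagocyte probes, which cover all 9 genes. Of these 11, CD86 passed through the untreated channels alone and S100A9 through the treated channels alone. The fit with limma, a linear model that shares variance between probes, called 0 of 13782 probes (0%) for treatment at a Benjamini-Hochberg adjusted p of 0.05, and 0 of the 11 phagocyte probes. Without adjustment, 495 probes (3.59%) had a p under 0.05. Nothing below passed that test, and "lower ratio" or "below 0" describes a value only.

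Orexin B-treated explants had less signal than untreated ones for all 3 activation genes on all 4 arrays. GP91-PHOX had normalised log2 intensities of 8.93, 10.03, 10.04 and 10.21 on arrays 1 to 4 in treated explants, against 9.93, 10.45, 11.30 and 11.67 in untreated explants. The untreated value was the higher of the pair on every array, although the ranges of both groups overlapped because the arrays differed in level. The log2 ratios of treated over untreated were -1.01, -0.42, -1.26 and -1.46, array 2 being closest to 0. The fitted ratio was -1.04 ± 0.22 (moderated SE of the fit, n = 4 arrays, 95% interval -1.56 to -0.52), or 2.05 times lower in treated explants. The other GP91-PHOX probe stood near background, well above it in 3 Cy5 channels and 0 Cy3 channels, and had ratios of 0.15, -0.72, 0.85 and -0.81. Those ratios changed sign with the dye, and the fit was -0.13 ± 0.16.

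The oxidase partners of GP91-PHOX could hardly be measured. Of 11 symbols listed for them, 3 had a probe and 1 was tested, CYBA, which encodes the p22-phox subunit that anchors the catalytic one in the membrane. CYBA had ratios of -0.21, -0.15, -1.33 and 0.16, with a fit of -0.38 ± 0.23, so most of its difference lay on array 3. NCF1, which encodes a cytosolic organiser subunit, was well above background in at most 4 of 8 channels and was not tested. Of the other NADPH oxidase genes listed, 4 had a probe (DUOX1, DUOX2 and their maturation factors DUOXA1 and DUOXA2) and 0 were tested.

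CD86 stood below 0 on every array with both of its probes. Its brighter probe had log2 intensities of 8.28, 9.09, 8.19 and 8.72 in treated explants, against 8.57, 9.74, 9.07 and 9.63 in untreated explants. The ratios were -0.29, -0.64, -0.88 and -0.92, and the fit was -0.68 ± 0.19 (95% interval -1.13 to -0.24), or 1.61 times lower. The dimmer probe, well above background in the 4 Cy5 channels and in 0 Cy3 channels, had ratios of -0.33, -0.91, -0.62 and -0.41 and a fit of -0.57 ± 0.14. Both probes gave a value of similar size, but each has a limit. The dimmer one was not tested and, with 0 Cy3 channels well above background, says little about the transcript. The brighter one was not well above background in treated explants of array 4. It was tested because it was bright in the untreated ones. With the authors' own background and dye correction, taken from the authors' deposited table, the brighter probe stood at -1.13, further from 0 by more than the spread between arrays (SD 0.29).

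Among the genes that work beside CD86, CD40 and CD274 were tested out of 9 listed, and 0 were called in either direction. CD40, the receptor through which T cells license antigen-presenting cells, stood at -0.26 ± 0.18. CD274, which encodes the inhibitory ligand PD-L1, stood at -0.47 ± 0.18 and was above 0 on array 2 alone (0.14). CD80, the other ligand of the same T cell receptors, had 2 probes, each well above background in at most 3 of 8 channels.

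CHI3L1 was the only activation gene with more than 1 tested probe, and both probes stood below 0 on 4 of 4 arrays. The brighter had log2 intensities of 13.75, 13.68, 14.30 and 12.78 in treated explants, against 14.39, 14.09, 14.79 and 13.89 in untreated explants. Its ratios of -0.64, -0.41, -0.49 and -1.12 gave a fit of -0.66 ± 0.19 (95% interval -1.12 to -0.21). The dimmer probe had ratios of -0.94, -0.95, -1.18 and -0.62 and a fit of -0.92 ± 0.18 (95% interval -1.34 to -0.50). Array 4 was the lowest of the 4 for one probe and the highest for the other, so the order of the arrays was not the same for both probes of the gene. All 4 channels of each dye were well above background for both probes, the firmest detection among the activation genes together with the bright GP91-PHOX probe. With median centring in place of loess, a scaling under which the median of all tested probes moved to 0.28, the bright probe stood at -0.21 and the dim one at -0.58, which is -0.49 and -0.86 against all tested probes. Of 6 genes listed for the chitinase family, OVGP1, an oviductal glycoprotein of that family, was the 1 tested and stood at 0.25 ± 0.17.

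**Figure D1:**
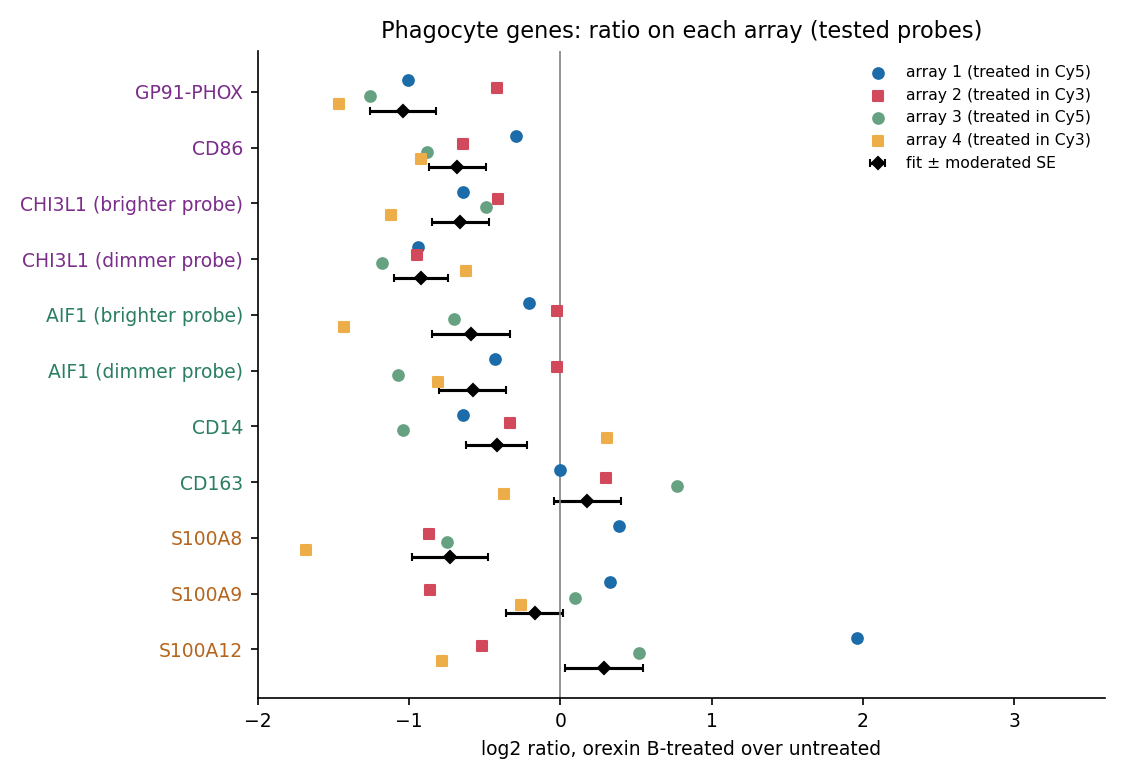
Log2 ratio of treated over untreated explants for the 11 tested probes, with circles for arrays with treated RNA in Cy5, squares for arrays with treated RNA in Cy3, and diamonds for the fit ± its moderated standard error. GP91-PHOX, CD86 and both probes of CHI3L1 and of AIF1 lie left of 0 on 4 of 4 arrays, while CD14, CD163 and the S100 genes lie on both sides.

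The lineage markers had ratios closer to 0 or of mixed sign. AIF1, which encodes the macrophage actin-binding protein also called Iba1, had log2 intensities of 10.82, 11.38, 11.27 and 11.35 in treated explants with its brighter probe, against 11.03, 11.40, 11.97 and 12.78 in untreated explants. The treated values had an SD of 0.26 and the untreated ones of 0.76, so the ratio varied mainly with the untreated level. The ratios were -0.21, -0.02, -0.70 and -1.43 (fit -0.59 ± 0.26, 95% interval -1.20 to 0.02), and those of the dimmer probe -0.43, -0.02, -1.07 and -0.81 (fit -0.58 ± 0.22). On array 2 both probes were at -0.02. Leaving out 1 array gave fits from -0.94 to -0.24 for the brighter probe. The lowest came without array 2 and the highest without array 4.

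CD14, the co-receptor that hands bacterial lipopolysaccharide to TLR4, had log2 intensities of 10.27, 10.83, 9.88 and 11.30 in treated explants, against 10.91, 11.15, 10.93 and 10.99 in untreated explants. The untreated values were the tightest of all phagocyte probes in either group (SD 0.11), and the treated ones spread over an SD of 0.62. Ratios were -0.64, -0.33, -1.04 and 0.31, with array 4 alone above 0, and the fit was -0.42 ± 0.20 beside a dye term of the same size (-0.42 ± 0.20). With the dye term taken out, the 4 ratios became -0.22, -0.74, -0.63 and -0.10, all below 0. That step sets the mean of each dye orientation to the fit, so the shared sign is partly built in. The second CD14 probe was well above background in the 4 Cy5 channels and 0 Cy3 channels, and stood at -0.34 ± 0.24, mostly through array 2 (-1.29).

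Of 15 genes listed for the Toll-like receptor pathway that CD14 feeds, 12 had a probe and 5 were tested, all with a fit below 0 and 0 called. TLR4 itself had ratios of -0.14, -0.30, -0.21 and -0.22 (fit -0.22 ± 0.17), with little spread between arrays, while its other tested probe stood at -0.42. LY96, which encodes its partner MD-2, stood at -0.18 ± 0.19, TRAF6, the ubiquitin ligase of the pathway, at -0.31 ± 0.17 and the kinase gene IRAK4 at -0.15 ± 0.18. TLR2, the receptor for bacterial lipoproteins, had the widest spread, with -2.99, -0.47, 0.59 and -0.64, array 1 standing far below the others, and a fit of -0.88 ± 0.50 that became 0.01 without array 1. For LY96 the fit was -0.01 without array 3.

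CD163, the scavenger receptor for haemoglobin bound to haptoglobin and a mark of resident, anti-inflammatory macrophages, did not share the low ratios of the activation genes. Its brightest probe had log2 intensities of 9.49, 8.89, 11.09 and 11.16 in treated explants, against 9.49, 8.59, 10.32 and 11.53 in untreated explants. Both groups moved together from array to array. The ratios of 0.00, 0.30, 0.77 and -0.37 gave a fit of 0.18 ± 0.22 (95% interval -0.33 to 0.69), which reached -0.02 without array 3. The other 3 CD163 probes, not tested, stood at -0.03 ± 0.15, 0.03 ± 0.12 and 0.02 ± 0.15, but were well above background in 0, 0 and 1 Cy3 channels, so these values say little about the transcript.

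The level of CD163, averaged over both dyes and therefore over both groups, differed between arrays by 2.60 on the log2 scale, from 8.74 on array 2 to 11.34 on array 4. Of all tested probes, 0.538% had a wider range between arrays, and the median range was 0.78. S100A12 ranged over 2.53, S100A8 over 1.86 and GP91-PHOX over 1.51, whereas CD14 ranged over 0.74. The level is a mean over both groups and not a difference between them. Its part in the ratios was not tested, and slide and array cannot be told apart on array 2.

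**Figure D2:**
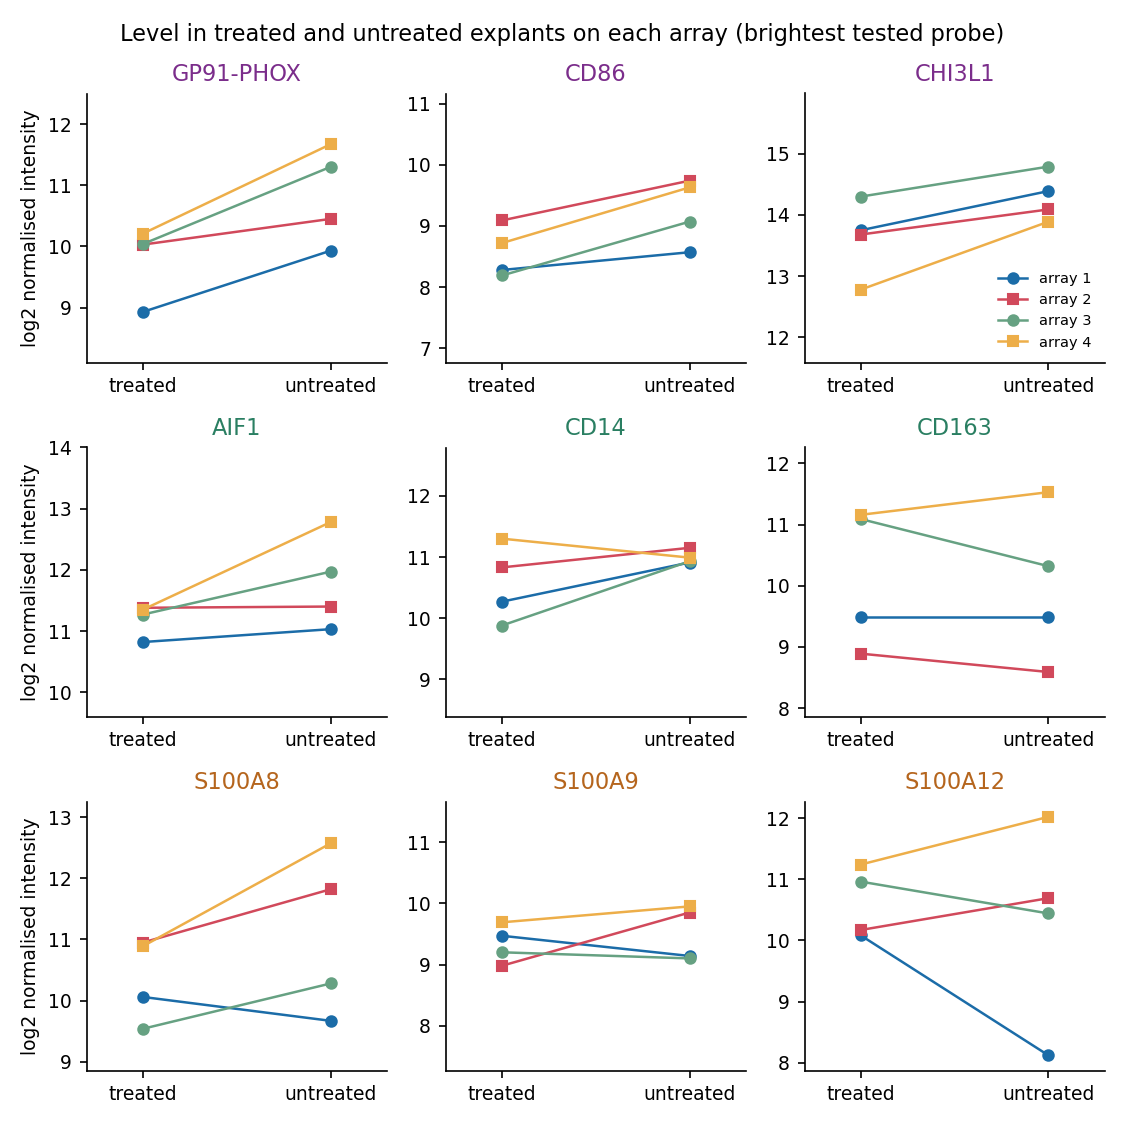
Normalised log2 intensity in treated and untreated explants of each array, 1 panel for each gene (brightest tested probe), with a line joining the 2 channels of an array and the same span of intensity in every panel. All 4 lines climb towards untreated for GP91-PHOX, CD86 and CHI3L1, while the CD163 lines differ in direction and spread over 2.60 between arrays.

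The ratios of S100A8 and S100A12 had the widest SDs over arrays among the tested phagocyte probes (0.85 and 1.25), whereas that of S100A9 was 0.52. S100A8 and S100A9 encode the subunits of calprotectin, which binds metal ions and starves microbes of them, and S100A12 encodes calgranulin C. In the RefSeq annotation of the pig assembly Sscrofa11.1 the 3 genes lie side by side on a chromosome, in the order S100A8, S100A12, S100A9. S100A8 had log2 intensities of 10.06, 10.95, 9.54 and 10.89 in treated explants, against 9.67, 11.82, 10.28 and 12.57 in untreated explants. Its ratios of 0.39, -0.87, -0.75 and -1.68 were above 0 on array 1 and below it on the other three, with a fit of -0.73 ± 0.25 (95% interval -1.32 to -0.14, and -1.01 to -0.44 with 1 array left out) and a dye term of 0.55 ± 0.25. With the dye term taken out they were -0.16, -0.32, -1.30 and -1.13, with the same limit as for CD14.

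S100A9, the partner of S100A8, had log2 intensities of 9.47, 8.98, 9.20 and 9.69 in treated explants, against 9.14, 9.85, 9.10 and 9.95 in untreated explants. Its ratios were 0.33, -0.86, 0.10 and -0.26, so the treated RNA was brighter on the arrays where it carried Cy5 and dimmer on the arrays where it carried Cy3. The fit was -0.17 ± 0.19 and the dye term 0.39 ± 0.19. S100A12 had log2 intensities of 10.08, 10.17, 10.96 and 11.24 in treated explants, against 8.12, 10.69, 10.44 and 12.02 in untreated explants. Its ratios of 1.96, -0.52, 0.52 and -0.78 also turned with the dye, with a fit of 0.29 ± 0.26 (-0.06 without array 1) and a larger dye term of 0.95 ± 0.26. Both subunits of calprotectin thus differed in their fitted ratio by more than either standard error, at -0.73 and -0.17, and no test compared them.

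Other S100 genes, most of which are not phagocyte genes, had fits at or above 0 that depended on single arrays. Of 15 listed, 5 had a probe and 4 were tested, with a median of 0.20 and 0 called. The median was -0.02 without array 1, -0.01 without array 4 and 0.44 without array 2. S100A11 stood at 0.30 ± 0.18, S100A16 at 0.26 ± 0.21, S100A6 at 0.14 ± 0.29 and S100A14, an epithelial member of the family, at 0.02 ± 0.35. Neutrophil genes gave little more to go on. Of 27 listed, 8 had a probe and 2 were tested, LCN2 at -0.47 ± 0.30 and MMP9 at -0.01 ± 0.19, and both are also made by epithelium or stroma. LTF, the lactoferrin gene, and the antimicrobial peptide genes PR39, PMAP-23 and PMAP-36 were well above background in at most 3 of 8 channels.

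Set beside each other, the activation genes had lower ratios than the lineage markers on each array. The mean over GP91-PHOX, CD86 and CHI3L1 (brightest probes) was -0.65, -0.49, -0.88 and -1.17 on arrays 1 to 4. Over AIF1, CD14 and CD163 it was -0.28, -0.02, -0.32 and -0.49. The difference, activation minus lineage, was -0.36, -0.47, -0.55 and -0.67, with a mean of -0.52 ± 0.13 (SD, n = 4). Both sets of means were lowest on array 4 and closest to 0 on array 2. Because the activation genes were picked for their low ratios, a difference in this direction is built into the choice of genes and has no test. The S100 genes had means of 0.89, -0.75, -0.04 and -0.91, above the activation mean on each array except array 2. With the dye terms taken out they were 0.27, -0.12, -0.67 and -0.28, above the activation means (-0.68, -0.46, -0.91 and -1.13) on 4 of 4 arrays. Taking out the dye terms gives both dye orientations the same mean, so this accord between arrays is partly built in.

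Within the lineage markers the spread was as wide as the gap to the activation genes. AIF1 stood at -0.59, near CD86 and CHI3L1, and CD163 at 0.18. The low values therefore did not divide cleanly between the labels activation and lineage. The medians of the 3 groups were -0.68 for activation genes, -0.42 for lineage markers and -0.17 for S100 genes, beside 0.02 for all 13782 tested probes and -0.02 for the 1637 tested genes with a name. Of the 11 phagocyte probes, 6 were below 0 on 4 of 4 arrays (GP91-PHOX, CD86, both CHI3L1 and both AIF1). This held for 3.67% of all tested probes and for 5.61% of the 1637 named genes (brightest probe). The choice of genes bears on the phagocyte share, and CHI3L1 and AIF1 each enter with both probes.

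**Figure D3:**
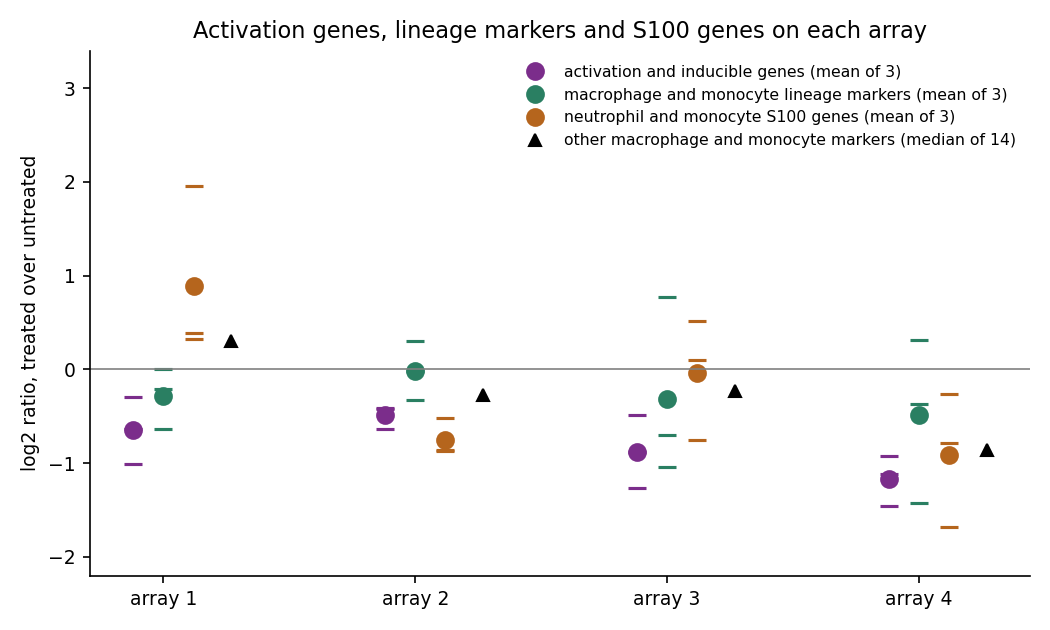
Log2 ratio of treated over untreated on each array for the 3 groups of phagocyte genes, with a large point for the group's mean and dashes for its genes, and a triangle for the median of 14 other macrophage and monocyte markers. The activation mean lies below the lineage mean on 4 of 4 arrays, and the triangle lies above 0 on array 1 and lowest on array 4.

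A wider list of macrophage and monocyte genes gave the background for this comparison. Of 37 listed, 26 had a probe and 14 were tested, 10 with a fit below 0 and 4 above, and 0 called. The median was -0.16, against -0.02 for all named genes, of which 56.1% were below 0. The list also holds genes that other cell types make, such as LGALS3, CD9 and HMOX1, and the cytokine gene CSF2. Its median is therefore not that of macrophages alone. The median on arrays 1 to 4 was 0.30, -0.27, -0.23 and -0.86, or 0.03, 0.00, -0.39 and -0.47 with dye terms taken out. On array 1, 4 of the 14 were below 0 and 0 of them were as low as GP91-PHOX, whereas on array 4 there were 12 below 0 and 2 lower than GP91-PHOX. Arrays 2 and 3 had 11 and 8 below 0, and 4 and 0 lower than GP91-PHOX.

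The genes of this list that stood lowest were LYZ, the lysozyme gene, at -0.68 ± 0.25, the Fc receptor gene FCGR3A at -0.66 ± 0.23 and ITGB2, the shared beta chain of the leukocyte integrins, at -0.49 ± 0.22. LYZ had ratios of -0.44, -0.22, -0.46 and -1.59, FCGR3A 0.00, -0.56, -0.35 and -1.74, and ITGB2 -0.20, -0.20, -0.33 and -1.22. Array 4 was the lowest for each of the 3. The 3 tested probes of LYZ ran from -0.68 to -0.33, and the one used was not well above background in every channel. Those of FCGR3A ran from -0.80 to -0.62. TYROBP and FCER1G, signalling adaptors that nearly all myeloid cells carry, were chosen after their values were seen. They had ratios of 0.37, -0.24, -0.30 and -1.16 (fit -0.33 ± 0.23), and of 0.23, -0.30, -0.33 and -1.17 (fit -0.39 ± 0.22). Other genes of the list stood nearer 0, such as C1QA at -0.12 ± 0.19 and C1QB at 0.06 ± 0.24. C1QA and C1QB were also named after their values were seen. At the other end stood LGALS3, a galectin that epithelium also makes, at 0.63 ± 0.26, and FCGR2B, an inhibitory Fc receptor gene, at 0.30 ± 0.28. The transcription factor gene SPI1 was well above background in at most 1 of 8 channels.

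Markers of other cell types moved between arrays as well. The 5 tested epithelial markers had medians of -0.77, -0.65, -0.43 and 0.61 on arrays 1 to 4, so they were above 0 on array 4, where the macrophage genes stood lowest. Their mean log2 intensity ran from 12.85 to 13.74 in treated explants and from 13.03 to 14.13 in untreated explants. The 5 tested T and NK cell markers of 12 with a probe had medians of -0.03, -0.65, 0.03 and -0.55, all 5 with a fit below 0 (median -0.27), and mean intensities from 9.15 to 9.92 in treated explants and from 9.18 to 10.54 in untreated explants. CD3D and CD3E, defining T cell genes, were well above background in at most 4 of 8 channels and were not tested. CD3G (-0.27 ± 0.18) and CD247 (-0.33 ± 0.20) were among the 5 tested, with at most 6 and 7 of 8 channels well above background. For the 14 tested genes of the wider macrophage and monocyte list the mean intensity ran from 11.20 to 11.79 in treated explants. In untreated explants it ran from 11.31 to 12.09. The 4 fibroblast and matrix markers had a median fit of 0.22, the 5 endothelial markers -0.08, the 5 smooth muscle markers -0.06 and the single mast cell marker tested (KIT) -0.15. For B and plasma cells 3 of 8 markers had a probe and 0 were tested. The part of these other cell types in the phagocyte ratios was not tested.

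The dye term was not used to choose the genes and could be tested. Limma called 0 of 13780 probes (0%) for dye at an adjusted p of 0.05, and 0 of the 11 phagocyte probes. Before adjustment, 1950 probes (14.2%) had a limma p under 0.05 for dye, a larger share than the 3.59% for treatment. The activation probes had dye terms between -0.13 and 0.10. For GP91-PHOX the dye term was -0.10 ± 0.22 (limma adjusted p = 0.850), for CD86 0.10 ± 0.19 (limma adjusted p = 0.826) and for the dimmer CHI3L1 probe -0.13 ± 0.18 (limma adjusted p = 0.733). In size the dye term was above the treatment term for 3 of the 11 probes, CD163, S100A9 and S100A12, the last with a limma adjusted p of 0.290.

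**Figure D4:**
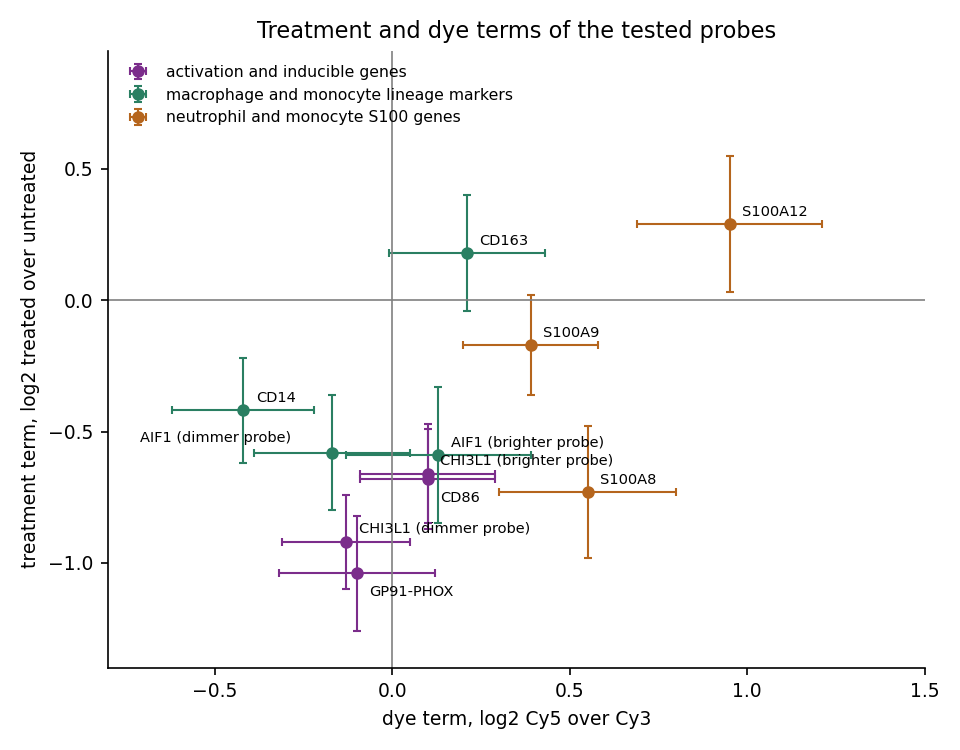
Treatment term (log2 treated over untreated) against dye term (log2 Cy5 over Cy3) of the 11 tested probes, with moderated standard errors on both axes. The 4 activation probes lie at dye terms between -0.13 and 0.10, while the S100 genes lie at 0.39 to 0.95.

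These signs rest on the dye labels given for each array. A protocol text common to the samples leaves room for treated RNA in Cy5 throughout, and under that reading GP91-PHOX stood at -0.10, CD86 at 0.10 and the bright CHI3L1 probe at 0.10. In the authors' deposited table columns 2 and 4 have a correlation of -1 with the scanner's Cy5 over Cy3 ratio, and columns 1 and 3 one of 1, the same orientation as the dye labels. The Cy5 over Cy3 ratio of the activation genes changed sign with the labelled orientation on 4 of 4 arrays, and their treatment ratios come from that alternation. Because these genes were selected on their low treatment ratios, the alternation is built into their choice. It therefore cannot decide which reading of the dyes holds.

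**Figure D5:**
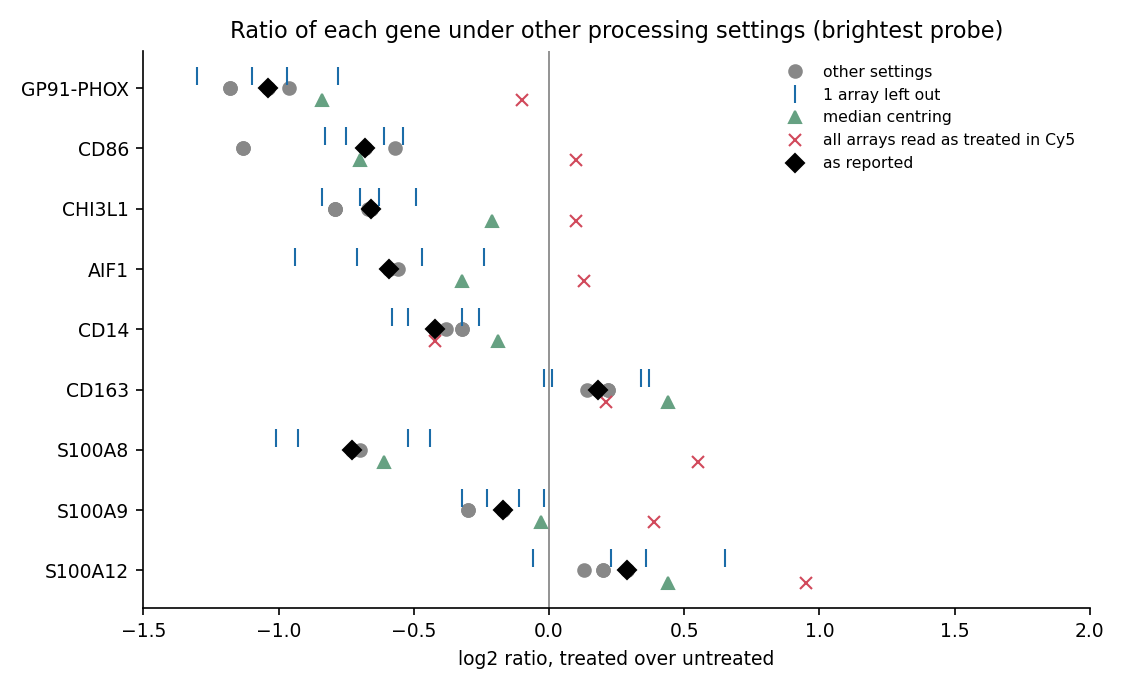
Log2 ratio of treated over untreated for each gene (brightest probe) as reported and under the other settings, including each array left out in turn, median centring and all arrays read as treated in Cy5. GP91-PHOX runs from -1.30 to -0.78 with 1 array left out and reaches -0.10 under the all-Cy5 reading.

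Patterns most like those of the activation genes were sought among 1595 other named genes with a value on all 4 arrays, by the Euclidean distance between the 4 log2 ratios. Nearest to GP91-PHOX was LOC396781, given here by its locus symbol only, at a distance of 0.41 (ratios -1.21, -0.53, -1.46 and -1.19). Next were the BCL2 family survival gene BCL2A1 at 0.57 (-1.32, -0.63, -1.69 and -1.46) and LYZ at 1.01. The 100th nearest gene was at 1.73. Nearest to CD86 were the calpain inhibitor gene CAST at 0.43, the orphan nuclear receptor gene NR4A3 at 0.48 and the mitochondrial carrier gene UCP2 at 0.49, with the 100th at 1.07. CHI3L1 had PDK1, which encodes a kinase that restrains pyruvate use, at 0.41, ITGB2 at 0.52 and LYZ at 0.55, with the 100th at 1.13. LOC396781 and BCL2A1 were lowest on array 3, whereas GP91-PHOX, ITGB2 and LYZ were lowest on array 4. A distance over 4 arrays describes these values only.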

How the data were processed

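Agilent Feature Extraction 10.7.3.1 (array design 026440) gave the deposited spot intensities of both dyes, per the file headers. They also hold deposited log10 ratios (Cy5 over Cy3) that the software corrected for background and dye, and the deposited value table of the authors holds uncentred log2 ratios equal to that of the processed signals; both served as alternatives. RNA had integrity numbers of 8 to 10, per the labels' protocols. Median signals were corrected by normexp (offset 50) and normalised by loess within arrays (limma 3.58.1, R 4.3.3), with control and outlier spots at weight 0, and the spots of a probe were averaged. Levels of each channel followed Aquantile scaling. Limma fitted a treatment and a dye term on 4 arrays (2 residual and 5.09 prior degrees of freedom), tested on simulated data. The number of arrays limits the precision. Standard errors and p-values rest on the spread between arrays left after both terms, with variance shared between probes. A gene is given by its tested probe of highest signal. Probes were named through RefSeq accessions (Sscrofa11.1). The array names no build, so coordinates are not given, and no sequences were used here. The members and lists were chosen with earlier results of these data known. From each wider phagocyte list up to 3 genes with the lowest and 2 with the highest fit were named, and for each activation gene the 3 nearest patterns. TYROBP, FCER1G, C1QA, C1QB, CD9, HMOX1, CSF2, FABP5, CD3G and CD247 were named outside this rule. Genes without a tested probe were named freely.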

Additional observations from a re-analysis of the deposited data

Results flagged for a closer look

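Over 66 sets of 4 array values (ratios and levels of the phagocyte probes, list medians and named genes), 1 had an array far from the others by Dixon's test. This was ITGB2, at -1.22 on array 4 and between -0.33 and -0.20 on the others. Chance alone flags about 5% of such sets.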

How the results depend on the processing

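With 1 array left out, the activation genes had medians of -0.84 to -0.61, the lineage markers of -0.52 to -0.24 and the S100 genes of -0.32 to -0.02, and the difference of activation minus lineage ran from -0.56 to -0.47. Calls for treatment over all probes ran from 0 to 15 (15 without array 2, when array 4 is the only one with treated RNA in Cy3) and for dye from 0 to 6. With all arrays read as treated in Cy5 the medians were 0.10, 0.13 and 0.55 and the difference 0.06, by construction, since this swaps treatment for dye. With Agilent's processed log ratio and with the authors' value table the activation median was -1.13 and the difference -0.80, and the cause was not tested. Averaging the probes of a gene gave 2 calls for treatment and 12 for dye among named genes. The 2 for treatment were BCL2A1, one of the patterns nearest to GP91-PHOX, and FABP5, both lower in treated explants. Median centring gave 6867 calls for dye, because that scaling leaves the intensity-dependent dye difference in. Of all these calls for treatment, 0 were phagocyte genes. Values of single genes and lists were also compared under the alternatives (filters, the dye term and the authors' table not counted). Of 466 such values, 423 moved by less than their SD between arrays and 56 changed sign. The 466 include the fits with 1 array left out. There the value of a single gene cannot move by as much as its SD over the 4 arrays, by arithmetic. The 466 also include the reading of all arrays as treated in Cy5, which swaps treatment for dye. The 423 are therefore no measure of how firm the values are. Among the phagocyte genes, CD86 and S100A9 drop out where every channel must be well above background. Low signal limits 6 of the 17 phagocyte probes, which were well above background in at most 1 Cy3 channel. Each ratio already pairs both groups within an array, so no further replicate block could be added.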
